A study of Mus musculus with 12 samples.

Results

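Genes of the BCL2 family were followed across the livers of Tiparp knockout and wild-type mice given TCDD or corn oil. The 10 genes were chosen by symbol, with earlier results of these data known: Bcl2l11, Bbc3, Bid, Bik and Bmf, which encode BH3-only proteins, Bcl2l1, Mcl1 and Bcl2, which encode survival proteins, and Bak1 and Bax, which encode the pore-forming effectors. Each gene was represented by the probe set that carried its symbol alone in the platform table, with the highest mean over the arrays deciding between several. This gave 9 genes of 14860, each with 1 such probe set. No probe set carried the symbol Bax alone, so Bax was not analysed here.

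The livers came from mice 8 weeks of age on a mixed C57BL/6;129Sv background, and there were 3 Affymetrix Mouse Exon arrays, labelled as biological replicates, in each group. The groups were Tiparp -/- mice given TCDD (2,3,7,8-tetrachlorodibenzo-p-dioxin), Tiparp -/- mice given corn oil, Tiparp +/+ mice given TCDD and Tiparp +/+ mice given corn oil. TCDD was given by intraperitoneal injection at 30 µg per kg of body weight. The time from dose to collection, the sex of the mice and the way the Tiparp allele was disrupted are not stated in the labels. Whole liver was measured, so fewer cells of a type and less RNA per cell cannot be told apart. Values are log2 expression, so a difference of 1 is a doubling, and the number of arrays limits the precision.

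Proteins of the BCL2 family control whether the outer mitochondrial membrane is opened during apoptosis. The effectors BAX and BAK form the pore, survival proteins such as BCL-XL and MCL-1 hold them in check, and BH3-only proteins, switched on by damage or loss of growth signals, bind the survival proteins or the effectors. On GRCm38.p6 Bcl2l11 (chr2:128126038-128162547), Bmf (chr2:118528757-118549686) and Bcl2l1 (chr2:152758732-152833803) lie on chromosome 2 and Mcl1 (chr3:95656944-95663179) on chromosome 3, per RefSeq. In the mouse liver BCL-XL and MCL-1 are both needed for hepatocyte survival, and BID carries the signal of death receptors to the mitochondria. TCDD activates the aryl hydrocarbon receptor (AhR), a ligand-dependent transcription factor, and TIPARP is a mono-ADP-ribosyltransferase that is induced by AhR and represses it.

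The arrays had medians of 6.91 to 7.00 and correlated within groups with r of 0.979 to 0.989 across probe sets, which are not independent. Defining hepatocyte genes were high on every array, with Alb (albumin) group means between 13.92 and 13.94. Tiparp read 6.70 to 6.91 in knockout TCDD livers and 5.58 to 7.10 in knockout corn oil livers, against 9.91 to 10.84 in wild-type TCDD livers and 7.33 to 7.42 in wild-type corn oil livers. The labels do not say which part of the transcript this probe set reads. Cyp1a1, the classical AhR target, rose under TCDD in both genotypes, by 4.97 ± 0.32 in the knockout and 6.92 ± 0.32 in the wild type (log2, SE). Its means under TCDD were close, at 13.31 in the knockout and 13.24 in the wild type. Under corn oil they were 8.34 and 6.32, a difference of 2.02 (adjusted p = 0.0278 by limma). On the first principal component (23.5% of the variance) the 3 arrays of knockout livers given corn oil stood away from all others, with scores of 45.8, 36.7 and 17.2 for replicates 1, 2 and 3, against -30.5 to 7.99 for the other 9 arrays. TCDD results of the knockout that rest on these arrays are therefore also given, for the called members and pathway genes, against wild-type corn oil livers, an alternative chosen after seeing the data.

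TCDD changed 2 BH3-only genes and 2 survival genes of knockout liver in opposite directions. Bcl2l11, which encodes the BH3-only protein BIM, rose 5.23-fold and Bmf, which encodes another BH3-only protein, rose 2.77-fold, while the survival genes Bcl2l1 (BCL-XL) and Mcl1 fell 1.70-fold and 1.38-fold. The other 5 measured genes, Bbc3, Bid, Bik, Bcl2 and Bak1, did not pass the test. A gene was called where its adjusted p, from limma with Benjamini-Hochberg adjustment over all 23332 probe sets, was below 0.05. Thus 4 of 9 members were called in this comparison, 2 higher and 2 lower, where 5.58% of all probe sets were called, 2.21% higher and 3.37% lower. These shares are a description and not a test, because the members were chosen with earlier results of these data known. All probe sets also include 7317 without a symbol. The prevailing direction over all probe sets was not stable: 516 were higher and 787 lower as deposited, but 664 and 458 after another quantile normalization and 639 and 536 after median centring. It also turned with no rescaling, to 119 and 65 with the arrays of the compared groups alone, 313 and 220 against wild-type corn oil livers, 349 and 234 without knockout TCDD replicate 1, 226 and 209 without replicate 3 of that group, and 280 and 263 without knockout corn oil replicate 2. The direction of each of the 4 called members was the same in all of these, but their calls were not equally firm. Bcl2l11 and Bmf were called in all 6 fits that left out 1 array, Bcl2l1 in 2 and Mcl1 in 1. Against wild-type corn oil livers only Bcl2l11 and Bmf were called. The arrays of the groups did not overlap for 4 of the 9 members, against 23.5% of all probe sets. The median log2 change of the 9 members was -0.07, against -0.05 for all probe sets.

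In wild-type liver no member was called by limma under TCDD, where 0.116% of all probe sets were called. At an unadjusted p under 0.05 there were 2 members, Bcl2l11 (0.62) and Bcl2l1 (-0.37, both log2), and 1698 of all probe sets. The same 2 genes were those whose arrays did not overlap, against 13.7% of all probe sets. The median log2 change of the members was -0.10, against 0.01 for all probe sets. Between genotypes under TCDD, 2 of 9 members were called, Bcl2l11 and Bmf, both higher in the knockout, where 0.240% of all probe sets were called and 0.223% were called higher. The arrays did not overlap for 5 members, against 18.3% of all probe sets. The median was 0.04, against -0.03. Between genotypes under corn oil no member was called by limma, and 0 members had an unadjusted p under 0.05, against 1.96% of all probe sets called and 4505 with such a p. No member had groups without overlap there, against 21.8% of all probe sets. The median was 0.14, against 0.03.

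The difference between the TCDD effects of the genotypes, tested as the interaction, was called by limma for no member, where 0.159% of all probe sets were called. At an unadjusted p under 0.05 there were 3 members, Bcl2l11, Bmf and Mcl1, and 3446 of all probe sets. A call in the knockout beside no call in the wild type therefore does not show by itself that the genotypes responded differently. These comparisons share arrays with each other, and all use 1 residual variance per probe set.

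**Figure D1:**
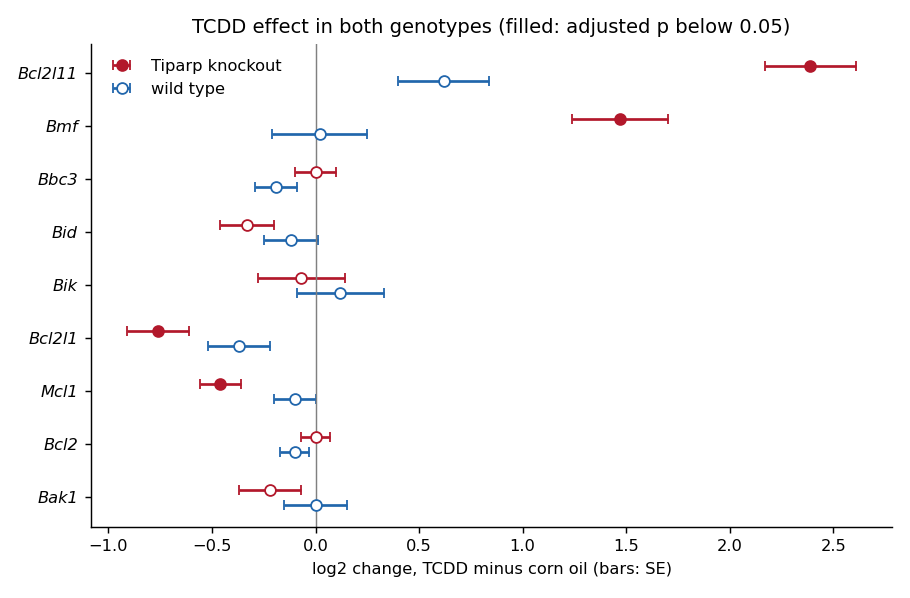
Log2 change under TCDD (TCDD minus corn oil) of the 9 measured BCL2 family genes, with bars of 1 SE, in Tiparp knockout liver (red) and wild-type liver (blue), and filled symbols for an adjusted p below 0.05. In the knockout Bcl2l11 (2.39) and Bmf (1.47) lie to the right and Bcl2l1 (-0.76) and Mcl1 (-0.46) to the left, and no wild-type symbol is filled.

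Markers of other liver cells also moved under TCDD in the knockout, where 5.58% of all probe sets were called. Of 9 endothelial markers, 5 were called lower in knockout TCDD livers than in knockout corn oil livers (Stab1, Stab2, Pecam1, Tek and Oit3) and 0 higher. The mean log2 level of the list was 9.12 to 9.32 in knockout TCDD livers, against 9.65 to 9.78 in knockout corn oil livers, and 9.12 to 9.17 in wild-type TCDD livers, against 9.37 to 9.58 in wild-type corn oil livers. Of 8 Kupffer cell markers 1 was called lower (Marco), of 7 stellate cell markers 1 was called higher (Col1a1), and of 7 neutrophil, 8 lymphocyte, 4 cholangiocyte and 7 hepatocyte markers none was called by limma in either direction (2, 1, 0 and 2 at an unadjusted p under 0.05). Of 10 clock and glucocorticoid-responsive genes, 2 were called lower, Per1 and Fkbp5, and 8 had an unadjusted p under 0.05. By that measure there were also 8 between genotypes under corn oil and 8 for the interaction. Fkbp5 read 7.52 to 8.09 in knockout TCDD livers, against 9.50 to 10.78 in knockout corn oil livers. It read 8.12 to 8.73 in wild-type TCDD and 7.78 to 8.90 in wild-type corn oil livers. Under corn oil Fkbp5, Marco and the neutrophil marker Retnlg were called higher in the knockout, each as the only call of its list, where 1.96% of all probe sets were called. With the arrays of the compared groups alone no probe set was called in that comparison. These calls and that of Cyp1a1 under corn oil were therefore lost there. Marco had means of 7.84 in knockout corn oil, 6.79 in knockout TCDD and 6.71 in wild-type corn oil livers. Between genotypes under TCDD no marker of these lists was called by limma, but all 7 stellate markers and all 8 Kupffer markers were higher in the knockout, with median differences of 0.38 and 0.28 (log2), and 5 and 0 of them had an unadjusted p under 0.05. The mean level of the stellate list was 8.35 to 8.48 in knockout TCDD livers, against 7.79 to 8.08 in wild-type TCDD livers, and that of the Kupffer list 8.94 to 9.07, against 8.25 to 9.04. Wild-type TCDD replicate 1, at 8.25, was the lowest of its group for every Kupffer marker, and replicates 2 and 3 had list means of 9.04 and 8.84. The Kupffer markers moved together in that liver, so their count is not one of independent differences. The part of these shifts in the values of the BCL2 family was not tested.

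**Figure D2:**
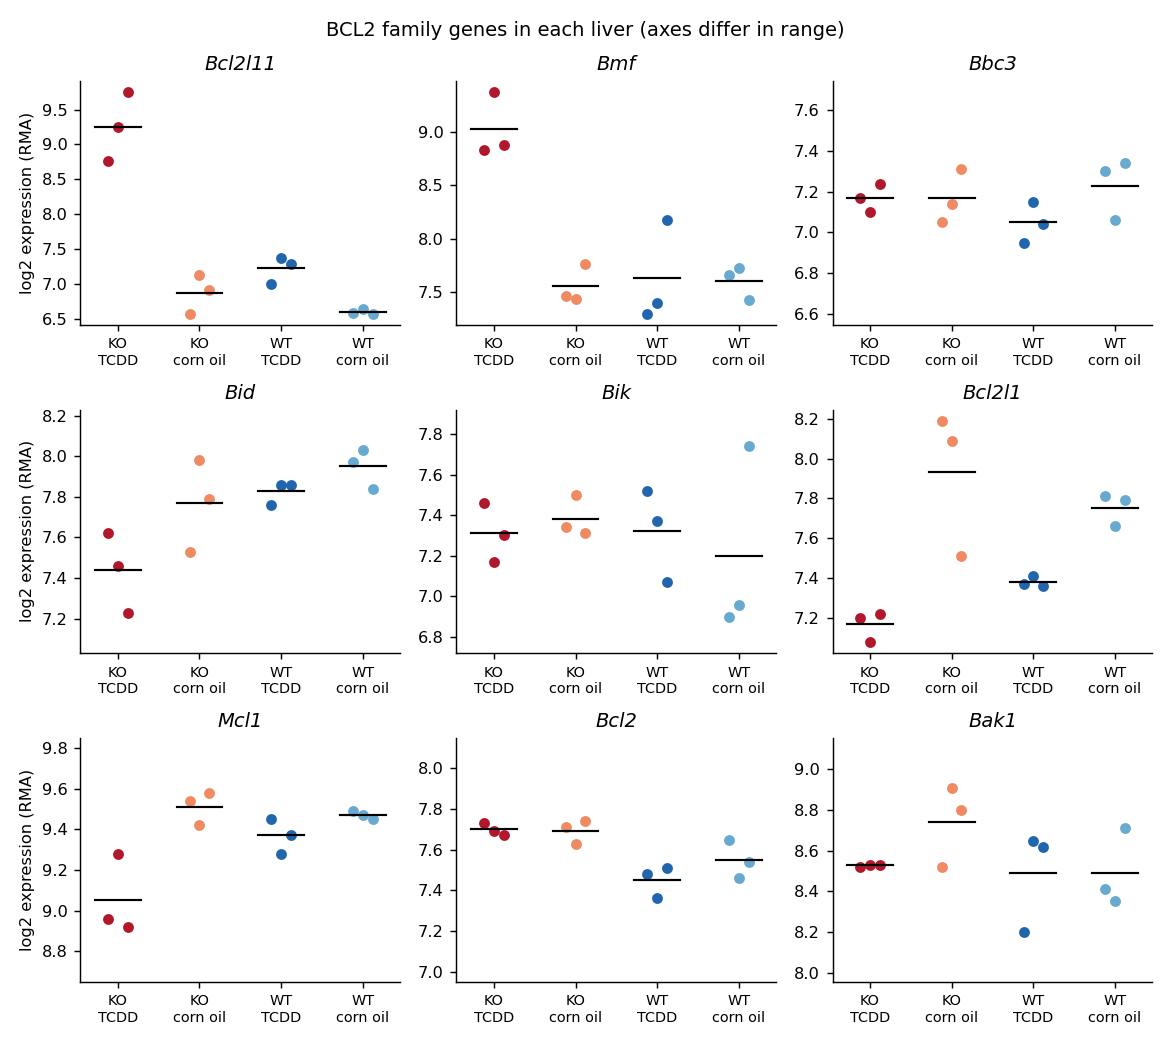
Log2 expression of the 9 measured genes in each of the 12 livers, as points, with the group mean as a line. The groups are Tiparp knockout (KO) and wild type (WT) with TCDD or corn oil, and the vertical axes differ between genes. The 3 knockout TCDD livers stand above all others for Bcl2l11 (8.76 to 9.75) and Bmf (8.83 to 9.37), and below all others for Bcl2l1 (7.08 to 7.22).

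Among the BH3-only genes Bcl2l11 (probe set 6881031) moved most. Its protein BIM binds all the main survival proteins and can also bind the effectors. It read 8.76, 9.25 and 9.75 in knockout TCDD livers, 6.57, 7.12 and 6.91 in knockout corn oil livers, 7.00, 7.37 and 7.28 in wild-type TCDD livers, and 6.58, 6.64 and 6.57 in wild-type corn oil livers. Each knockout TCDD liver was more than a log2 unit above every other liver, and the wild-type TCDD livers were also all above their corn oil controls. In the knockout the rise was 2.39 ± 0.22 (log2, SE; adjusted p = 0.000442). In the wild type the difference was 0.62 ± 0.22 (SE; 95% interval 0.12 to 1.12) and was not called (adjusted p = 0.574). Under TCDD the knockout stood above the wild type by 2.04 ± 0.22 (SE; 4.10-fold; adjusted p = 0.00534), and under corn oil by 0.27 ± 0.22 (SE; adjusted p = 0.570), where the groups overlapped.

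The interaction for Bcl2l11 was 1.77 ± 0.32 (log2, SE; 95% interval 1.06 to 2.47), with an unadjusted p of 0.00022 and an adjusted p of 0.073 by limma. It was called after another quantile normalization (adjusted p = 0.0398), without the lowest 25% of probe sets (0.0433), with array weights (0.0262), and without knockout corn oil replicate 3 (0.0395) or knockout TCDD replicate 1 (0.0269). Over the 18 alternatives run for it the adjusted p lay between 0.0262 and 0.172 and the value between 1.52 and 2.01. The rise in the knockout was called in all 6 fits that left out 1 array (2.14 to 2.63), and against wild-type corn oil livers it was 2.66 ± 0.22 (SE; adjusted p = 0.000249).

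Bmf (probe set 6890127) encodes a BH3-only protein that is known to be held at the cytoskeleton and to bind survival proteins once released. It read 8.83, 9.37 and 8.88 in knockout TCDD livers, 7.47, 7.44 and 7.76 in knockout corn oil livers, 7.30, 7.40 and 8.18 in wild-type TCDD livers, and 7.66, 7.73 and 7.43 in wild-type corn oil livers. The knockout TCDD livers were above all others. Wild-type TCDD replicate 3 stood apart from the others of its group and was the highest liver outside knockout TCDD. The rise in the knockout was 1.47 ± 0.23 (log2, SE; adjusted p = 0.00697), and it was called in all 6 fits without 1 array (1.30 to 1.57) and against wild-type corn oil livers (1.42; adjusted p = 0.0116). In the wild type the difference was 0.02 ± 0.23 (SE; 95% interval -0.49 to 0.53; adjusted p = 0.994), and without wild-type TCDD replicate 3 it lay at -0.26.

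Under TCDD, Bmf stood higher in knockout than in wild-type livers by 1.40 ± 0.23 (log2, SE; 2.64-fold; adjusted p = 0.0451). This call was lost without wild-type TCDD replicates 1 (1.24; adjusted p = 0.157) and 2 (1.29; 0.165) and without knockout TCDD replicates 1 (1.50; 0.0649), 2 (1.23; 0.110) and 3 (1.47; 0.127), and kept without wild-type TCDD replicate 3 (1.68; 0.0146). Under corn oil the genotypes overlapped, with a difference of -0.05 ± 0.23 (SE; adjusted p = 0.944). The interaction was 1.45 ± 0.32 (SE; 95% interval 0.73 to 2.17; adjusted p = 0.0973), between 1.28 and 1.73 over its 18 alternatives, and called with array weights alone (adjusted p = 0.0485).

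The promoters of these genes are shown because both were called higher in the knockout under TCDD, a ligand of AhR. In wild-type liver neither was called, at 0.62 for Bcl2l11 and 0.02 for Bmf (log2). Each window runs from 250 bases before to 50 after an annotated start, 5′ to 3′ on the strand of the gene, from RefSeq on GRCm38.p6. Where a gene had several windows, the most upstream of them is printed. Capitals mark 2 motifs searched on both strands, GCGTG, the core of the AhR response element (reverse complement CACGC), and GTAAACA, a forkhead motif (reverse complement TGTTTAC), searched because forkhead factors are known to activate Bcl2l11. Windows were present for 8 of the 9 genes. Of all 32851 windows of this length 32.4% held the first motif at least once and 3.65% the second. How many windows held several matches was not counted. The Bcl2l11 window (chr2:128125788-128126087, plus strand) held 3 matches to the AhR core, at -222, -203 and -146 from the start, and 1 forkhead match at -227, which overlaps the first of them. Positions are of the first base of a match, the start being 0. The other Bcl2l11 window and all 3 Bmf windows held neither motif, among them the printed one (chr2:118549637-118549936, minus strand). A match is a run of letters, not a measured binding site.
Bcl2l11: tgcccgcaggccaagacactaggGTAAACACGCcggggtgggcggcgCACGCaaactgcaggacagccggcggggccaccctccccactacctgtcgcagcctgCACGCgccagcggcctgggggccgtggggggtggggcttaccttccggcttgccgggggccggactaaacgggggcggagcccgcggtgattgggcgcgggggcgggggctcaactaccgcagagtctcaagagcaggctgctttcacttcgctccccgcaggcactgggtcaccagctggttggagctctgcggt
Bmf: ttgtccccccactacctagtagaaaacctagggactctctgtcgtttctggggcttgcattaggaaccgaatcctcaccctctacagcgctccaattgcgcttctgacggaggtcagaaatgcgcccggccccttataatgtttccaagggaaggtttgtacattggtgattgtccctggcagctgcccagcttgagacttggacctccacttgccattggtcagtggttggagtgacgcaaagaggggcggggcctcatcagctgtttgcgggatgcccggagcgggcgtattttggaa

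The other BH3-only genes stayed below the threshold in every comparison. Bbc3 (probe set 6958845), which encodes PUMA, a p53 target, read 7.10 to 7.24 in knockout TCDD livers, 7.05 to 7.31 in knockout corn oil livers, 6.95 to 7.15 in wild-type TCDD livers and 7.06 to 7.34 in wild-type corn oil livers. The 4 groups overlapped with each other, and the change under TCDD was 0.00 ± 0.10 in the knockout (95% interval -0.22 to 0.23) and -0.19 ± 0.10 in the wild type (log2, SE; 95% interval -0.41 to 0.04). One of its 3 promoter windows also held the forkhead motif, at -167, and all 3 held the AhR core, with 4, 1 and 1 matches. Bik (probe set 6832256), whose protein acts at the endoplasmic reticulum, ranged from 6.90 to 7.74, with both extremes in wild-type corn oil livers. Its change was -0.07 ± 0.21 in the knockout and 0.12 ± 0.21 in the wild type (log2, SE), and intervals that wide, -0.53 to 0.39 and -0.34 to 0.58, would hold a moderate change.

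Bid (probe set 6956981), which links death receptors to mitochondria, was lowest in knockout TCDD livers, at 7.62, 7.46 and 7.23, against 7.53, 7.98 and 7.79 in knockout corn oil livers. It read 7.76, 7.86 and 7.86 in wild-type TCDD livers, against 7.97, 8.03 and 7.84 in wild-type corn oil livers. The knockout groups overlapped through knockout corn oil replicate 1. The change was -0.33 ± 0.13 in the knockout (log2, SE; adjusted p = 0.165) and -0.12 ± 0.13 in the wild type (SE; adjusted p = 0.914). Under TCDD all knockout livers lay below all wild-type livers, by -0.39 ± 0.13 (SE; adjusted p = 0.284). Over the 14 alternatives the knockout change ran from -0.51 to -0.22 and was called with array weights alone (-0.50; adjusted p = 0.0296).

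Of the survival genes, Bcl2l1 (probe set 6892180) encodes BCL-XL, which binds BIM, BID and BAK. The array value does not separate the long isoform from the short BCL-XS, which promotes death. It read 7.20, 7.08 and 7.22 in knockout TCDD livers, 8.19, 8.09 and 7.51 in knockout corn oil livers, 7.37, 7.41 and 7.36 in wild-type TCDD livers, and 7.81, 7.66 and 7.79 in wild-type corn oil livers. Under TCDD the livers of both genotypes lay below all their own controls. The fall was -0.76 ± 0.15 in the knockout (log2, SE; adjusted p = 0.0188), and the wild-type difference of -0.37 ± 0.15 (SE; 95% interval -0.71 to -0.04) was not called (adjusted p = 0.629). The interaction was -0.39 ± 0.21 (SE; 95% interval -0.86 to 0.08; adjusted p = 0.437). Between genotypes under TCDD the difference was -0.21 ± 0.15 (SE; adjusted p = 0.625), although the groups did not overlap.

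Whether the fall of Bcl2l1 in the knockout was called depended on single arrays of both the control and the TCDD group. Against wild-type corn oil livers the fall was -0.59 ± 0.15 (log2, SE) and not called (adjusted p = 0.0782). It was also not called without knockout corn oil replicate 1 (-0.63; adjusted p = 0.0515) or 2 (-0.68; 0.0721), or without knockout TCDD replicate 1 (-0.78; 0.0548) or 3 (-0.79; 0.0615), and it was called without knockout corn oil replicate 3 (-0.97; adjusted p = 0.000474). That liver, at 7.51, was below every wild-type corn oil liver, while its group mates were above them. Without it Bcl2l1 was called higher in knockout than in wild-type corn oil livers (0.39; adjusted p = 0.0259, against 0.18 and 0.579 with it), and the interaction was called (-0.60; adjusted p = 0.0323). The same liver had the lowest Fkbp5 value of its group, 9.50, against 10.63 and 10.78 in replicates 1 and 2, and the lowest score on the first principal component. The part of that in the Bcl2l1 values was not tested.

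Mcl1 (probe set 6899694) encodes a short-lived survival protein that binds BIM and BAK. It read 8.96, 9.28 and 8.92 in knockout TCDD livers, 9.54, 9.42 and 9.58 in knockout corn oil livers, 9.45, 9.28 and 9.37 in wild-type TCDD livers, and 9.49, 9.47 and 9.45 in wild-type corn oil livers. All knockout TCDD livers were below both corn oil groups, and knockout TCDD replicate 2 equalled the lowest wild-type TCDD liver. The fall in the knockout was -0.46 ± 0.10 (log2, SE; adjusted p = 0.0279), against -0.10 ± 0.10 in the wild type (SE; 95% interval -0.33 to 0.12; adjusted p = 0.906). Under TCDD the genotypes differed by -0.31 ± 0.10 (SE; adjusted p = 0.271), and the interaction was -0.36 ± 0.14 (SE; 95% interval -0.67 to -0.04; adjusted p = 0.279).

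Without knockout TCDD replicate 2 the fall of Mcl1 was -0.57 (log2) and called (adjusted p = 0.00812). The call was lost without knockout corn oil replicates 1 (-0.45; adjusted p = 0.073), 2 (-0.51; 0.0552) and 3 (-0.43; 0.0507) and knockout TCDD replicates 1 (-0.41; 0.0947) and 3 (-0.39; 0.105). Against wild-type corn oil livers it was -0.42 ± 0.10 (SE; adjusted p = 0.0636), and after another quantile normalization -0.37 (adjusted p = 0.0576). All 14 alternatives gave a fall, between -0.57 and -0.37.

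The promoters of the 2 survival genes called lower under TCDD in the knockout are printed for comparison with those of the 2 genes called higher there. The Bcl2l1 window (chr2:152831679-152831978, minus strand) held 1 match to the AhR core, at -86, and the other Bcl2l1 windows held 1 and 0. The Mcl1 window (chr3:95658471-95658770, plus strand) held neither motif. No Bcl2l1 window held the forkhead motif.
Bcl2l1: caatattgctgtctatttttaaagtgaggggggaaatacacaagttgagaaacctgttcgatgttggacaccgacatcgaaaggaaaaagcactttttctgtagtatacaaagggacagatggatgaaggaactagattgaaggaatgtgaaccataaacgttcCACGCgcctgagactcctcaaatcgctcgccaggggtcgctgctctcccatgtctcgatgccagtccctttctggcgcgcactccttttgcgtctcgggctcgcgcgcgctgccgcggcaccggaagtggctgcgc
Mcl1: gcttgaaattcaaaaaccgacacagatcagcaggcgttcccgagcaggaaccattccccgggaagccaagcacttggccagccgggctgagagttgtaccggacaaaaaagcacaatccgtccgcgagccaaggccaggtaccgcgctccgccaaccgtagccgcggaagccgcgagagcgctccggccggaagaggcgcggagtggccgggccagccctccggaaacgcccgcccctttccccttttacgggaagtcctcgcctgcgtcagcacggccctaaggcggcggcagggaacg

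Bcl2 (probe set 6761256), the founding survival gene, ranged only from 7.36 to 7.74. It read 7.73, 7.69 and 7.67 in knockout TCDD livers, against 7.71, 7.63 and 7.74 in knockout corn oil livers, and 7.48, 7.36 and 7.51 in wild-type TCDD livers, against 7.65, 7.46 and 7.54 in wild-type corn oil livers. Its change under TCDD was 0.00 ± 0.07 in the knockout (log2, SE; 95% interval -0.16 to 0.17) and -0.10 ± 0.07 in the wild type (95% interval -0.27 to 0.07). Under TCDD all knockout livers were above all wild-type livers, by 0.25 ± 0.07 (SE), a difference that was not called (adjusted p = 0.259). The effector gene Bak1 (probe set 6854514) read 8.52, 8.53 and 8.53 in knockout TCDD livers, against 8.52 to 8.91 in knockout corn oil livers, and 8.20 to 8.65 in wild-type TCDD livers, against 8.35 to 8.71 in wild-type corn oil livers. Every pair of groups overlapped. Its change was -0.22 ± 0.15 in the knockout (log2, SE; 95% interval -0.54 to 0.11; adjusted p = 0.437) and 0.00 ± 0.15 in the wild type (SE; 95% interval -0.33 to 0.33).

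The order of the group means differed between the members that changed. For Bcl2l11 it was knockout TCDD (9.25), wild-type TCDD (7.22), knockout corn oil (6.87) and wild-type corn oil (6.60). The middle groups overlapped, as did the corn oil groups. For Bmf knockout TCDD (9.03) was followed by wild-type TCDD (7.63), wild-type corn oil (7.61) and knockout corn oil (7.56), and the last 3 overlapped with each other. For Bcl2l1 the order ran from knockout corn oil (7.93) and wild-type corn oil (7.75), which overlapped, to wild-type TCDD (7.38) and knockout TCDD (7.17), which did not. For Mcl1 knockout corn oil (9.51) and wild-type corn oil (9.47) overlapped, wild-type TCDD (9.37) met wild-type corn oil at 9.45, and knockout TCDD (9.05) was the lowest.

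The rest of the family and its pathway were described by 4 gene lists. Of all probe sets 5.58% were called for TCDD in the knockout and 0.116% in the wild type. Between genotypes the shares were 1.96% under corn oil and 0.240% under TCDD. In lists of this size 1 call beside a share of 5.58% therefore says little about the list. Of 17 further BCL2 family genes 12 were measured, and none was called under TCDD in either genotype by limma (1 in the knockout and 3 in the wild type at an unadjusted p under 0.05). Among them Pmaip1, which encodes the BH3-only protein NOXA, changed by -0.02 ± 0.08 in the knockout and -0.01 ± 0.08 in the wild type, and Bad, a BH3-only gene controlled by growth factors, by -0.05 ± 0.09 and 0.03 ± 0.09 (log2, SE). The 1 call in the list was Bok, a BAX-like effector gene, which differed between the genotypes given corn oil. Bok read 7.85, 7.93 and 7.90 in knockout corn oil livers, against 8.46, 8.37 and 8.71 in wild-type corn oil livers, a difference of -0.62 ± 0.10 (SE; adjusted p = 0.0278) that was called lower in 2 of 6 fits without 1 array. Both TCDD groups were likewise below the wild-type corn oil livers, at 7.91 to 8.05 in the knockout and 7.89 to 8.05 in the wild type. The list had a median log2 change of -0.04 in the knockout and 0.08 in the wild type.

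Of 18 genes of mitochondrial apoptosis and its caspases 14 were measured, and 1 was called, higher under TCDD in the knockout, with 0 lower. This was Casp6, an executioner caspase gene, which read 10.33, 10.71 and 10.79 in knockout TCDD livers, against 9.67, 9.76 and 10.01 in knockout corn oil livers, a rise of 0.80 ± 0.14 (log2, SE; adjusted p = 0.0134). The wild type was similar in size, with 10.62, 10.63 and 10.46 in wild-type TCDD livers, against 10.05, 9.75 and 9.73 in wild-type corn oil livers, but its difference of 0.73 ± 0.14 (SE) was not called (adjusted p = 0.157). The interaction was 0.07 ± 0.20 (SE; 95% interval -0.38 to 0.52; adjusted p = 0.915). Against wild-type corn oil livers the knockout rise was 0.77 (adjusted p = 0.0230). The knockout call was lost without knockout corn oil replicate 2 (0.77; adjusted p = 0.0507) and without knockout TCDD replicate 3 (0.71; 0.0591). The median of the list was -0.13 in the knockout and -0.05 in the wild type, and no other comparison had a call.

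Of 14 death receptor genes 12 were measured, with 1 called higher and 1 lower under TCDD in the knockout and 0 in the wild type. Tnfrsf10b, which encodes the receptor of the death ligand TRAIL, read 7.99, 8.61 and 8.58 in knockout TCDD livers, 6.65, 6.31 and 6.02 in knockout corn oil livers, 6.35, 6.75 and 6.64 in wild-type TCDD livers, and 6.15, 6.22 and 7.08 in wild-type corn oil livers. Like Bcl2l11 and Bmf it was above all other livers in the knockout TCDD group. It rose by 2.07 ± 0.27 (log2, SE; 4.19-fold; adjusted p = 0.00295) in the knockout, a call that held in all 6 fits without 1 array and against wild-type corn oil livers (1.91; adjusted p = 0.00530). Under TCDD knockout livers exceeded wild-type livers by 1.81 ± 0.27 (SE; adjusted p = 0.0277), called in 1 of 6 such fits, and the interaction was 1.97 ± 0.38 (SE; adjusted p = 0.0754). Cflar, which encodes the caspase-8 inhibitor c-FLIP, was called lower in the knockout by -0.55 ± 0.12 (SE; adjusted p = 0.0314), but against wild-type corn oil livers the difference was -0.24 (adjusted p = 0.385), and median centring (-0.49; adjusted p = 0.0542) and another quantile normalization (-0.44; 0.095) ended the call. It was lost too without knockout corn oil replicates 1 (adjusted p = 0.0811) and 2 (0.0925) and knockout TCDD replicates 2 (0.0641) and 3 (0.108). Under corn oil Tnfrsf1b, a TNF receptor gene, was called higher in the knockout (0.48 ± 0.10, SE; adjusted p = 0.0474), in none of the 6 fits without 1 array. The median of the list was -0.18 in the knockout and 0.06 in the wild type under TCDD.

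Of 16 transcription factors and regulators known to act on BCL2 family genes, 14 were measured, and 2 were called higher and 0 lower under TCDD in the knockout. Foxo3 encodes a forkhead factor that is known to activate Bcl2l11 and Bbc3. It read 10.61, 10.74 and 10.84 in knockout TCDD livers, 8.85, 9.57 and 9.59 in knockout corn oil livers, 9.33, 9.85 and 9.96 in wild-type TCDD livers, and 8.92, 9.35 and 9.21 in wild-type corn oil livers. The rise of 1.39 ± 0.22 (log2, SE; 2.63-fold; adjusted p = 0.00792) held in all 6 fits without 1 array and against wild-type corn oil livers (1.57; adjusted p = 0.00530), but not with the arrays of the compared groups alone (adjusted p = 0.0571). The wild-type difference was 0.55 ± 0.22 (SE; adjusted p = 0.629). Under TCDD the genotypes differed by 1.02 ± 0.22 (SE; adjusted p = 0.124) and the interaction was 0.84 ± 0.31 (SE; adjusted p = 0.249), neither of them called. Whether Foxo3 acts on the members in these livers was not tested. Stat5b, a factor of growth hormone signalling, was called higher by 1.13 ± 0.20 (SE; adjusted p = 0.0126), but by only 0.43 against wild-type corn oil livers (adjusted p = 0.321), and it was lost without knockout TCDD replicate 3 (1.03; adjusted p = 0.0578). Under corn oil Atf4, a factor of the integrated stress response, was called higher in the knockout (0.55 ± 0.12, SE; adjusted p = 0.0474) and Stat5a lower (-0.54 ± 0.11, SE; adjusted p = 0.0456), each in 1 of 6 fits without 1 array. The median of the list under TCDD was 0.07 in the knockout and 0.02 in the wild type.

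**Figure D3:**
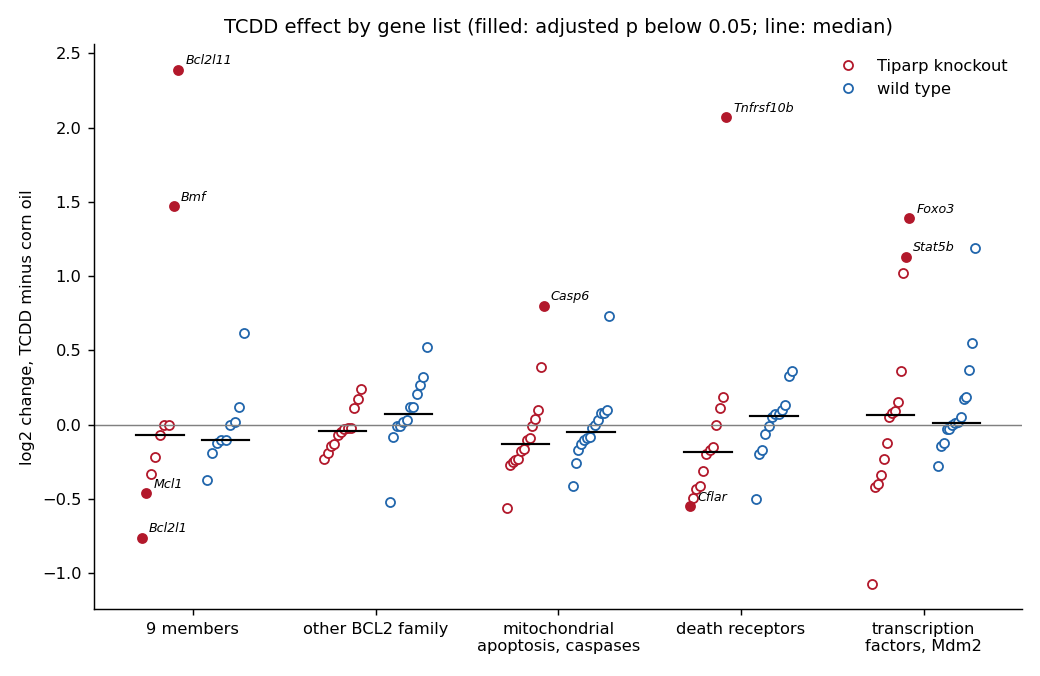
Log2 change under TCDD of the 9 members and of 4 gene lists (12, 14, 12 and 14 measured genes), 1 circle per gene, in Tiparp knockout liver (red) and wild-type liver (blue), with the list median as a line and filled circles for an adjusted p below 0.05. The medians lie near 0, and the called genes are few in each list: Bcl2l11, Bmf, Bcl2l1 and Mcl1, none in the rest of the family, then Casp6, Tnfrsf10b and Cflar, and Foxo3 and Stat5b, all in the knockout.

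The genes most like each changed member were named by Pearson's r of log2 values over the 12 arrays, among 14859 other genes. These values describe the pattern, with no test, since the 12 points fall into 4 groups and share arrays and normalization. The genes were picked for likeness on these same arrays, so a shared order of livers is built into the choice. For Bcl2l11 they were Ecel1, a metalloprotease gene (r = 0.990), Nomo1 (0.983) and Ahrr, the AhR repressor gene and itself an AhR target (0.981). Ahrr read 7.63, 8.97 and 9.01 in knockout TCDD livers, 6.00, 6.02 and 6.03 in knockout corn oil livers, 6.26, 6.57 and 6.44 in wild-type TCDD livers, and 5.90, 5.88 and 5.95 in wild-type corn oil livers, so that, as for Bcl2l11, knockout TCDD replicate 1 was the lowest of its group and every wild-type TCDD liver was above every corn oil liver of its genotype. For Bmf they were Cbr3, a carbonyl reductase gene (0.951), Tnfrsf18, a TNF receptor family gene (0.951), and the splicing factor gene Srsf10 (0.928). For Bcl2l1 they were the phosphatase gene Ptprj (0.961), the proprotein convertase gene Pcsk5 (0.959) and Hsd17b12 (0.951), and each of them was also lower in knockout corn oil replicate 3 than in its group mates. For Mcl1 they were the mitochondrial GTPase gene Rhot1 (0.972), Ireb2, which encodes an iron regulatory protein (0.957), and the endothelial marker Tek (0.943). Among the members themselves, r was 0.897 between Bcl2l11 and Bmf, 0.633 between Bcl2l1 and Mcl1, -0.875 between Bcl2l11 and Mcl1, and -0.73 between Bcl2l11 and Bcl2l1.

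**Figure D4:**
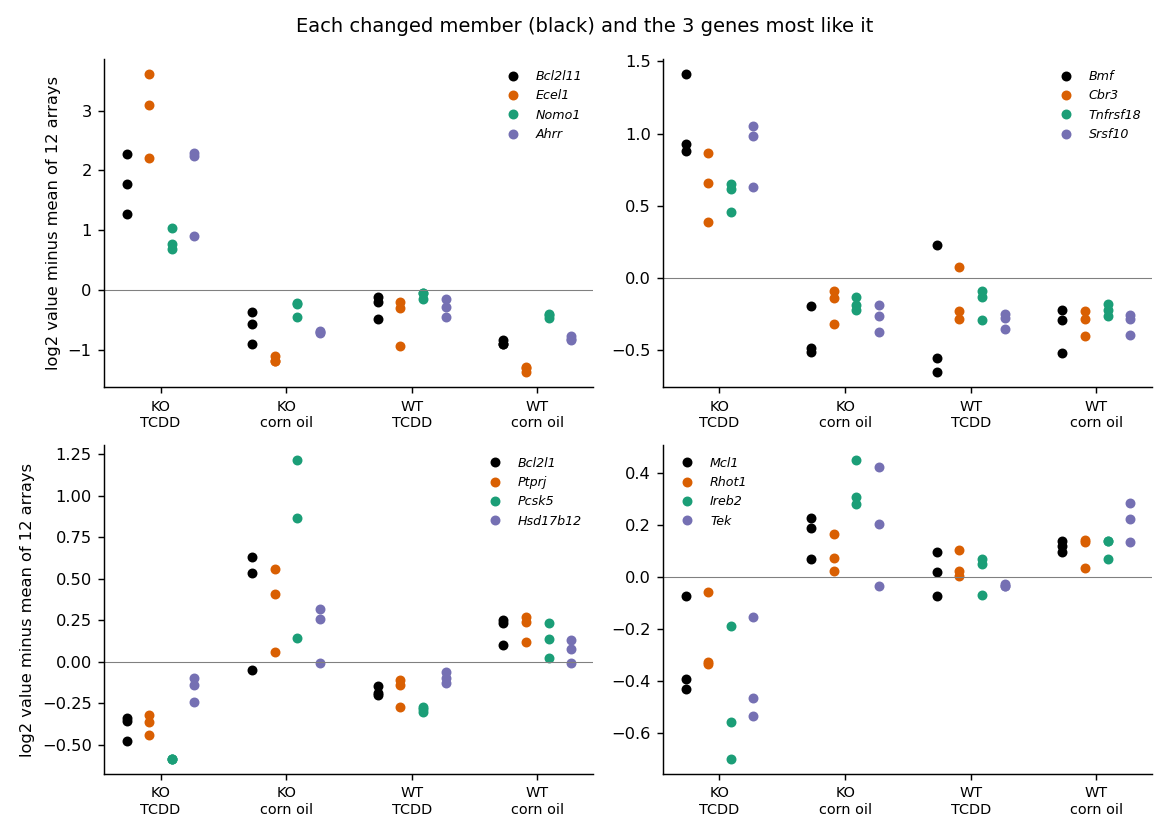
Log2 value minus the mean of the 12 arrays for each changed member (black) and the 3 genes most like it (colours), 1 point per liver, by group (KO, Tiparp knockout, and WT, wild type). Bcl2l11 and Bmf and their companions are high in knockout TCDD livers, Bcl2l1 and its companions spread widely among knockout corn oil livers, and Mcl1 and its companions are low in knockout TCDD livers.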

How the data were processed

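Per the labels, liver RNA was hybridised to Affymetrix GeneChip Mouse Exon 1.0 ST arrays. The authors deposited log2 values, 1 per probe set and array, made with Affymetrix Expression Console and RMA, with mm9 as the build, per the submitters' processing notes. Neither version numbers nor the annotation level are stated there. The values (23332 probe sets, 2 decimals, 1.05 to 14.16) were used as deposited. RMA pools the probes of a gene, so isoforms are not separated.

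Of the probe sets 14996 had 1 symbol in the platform table, 1019 several and 7317 none. Group means over all 12 arrays were fitted with limma 3.58.1 in R 4.3.3 (8 residual and 2.19 prior degrees of freedom). The empirical Bayes step had its default settings, and 5 contrasts were taken. P-values were adjusted by Benjamini-Hochberg over all probe sets within a contrast. SE comes from this fit, and the 95% intervals are unadjusted. The fit was tested on simulated data. Nothing says whether replicates shared a cage or litter.

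All members, the calls of the pathway lists (up to 6 genes each), Tiparp and the 3 genes most like each called member were named. The members and lists were chosen with earlier results of these data known. Promoter windows were matched by gene number. Alternatives changed the empirical Bayes step, arrays, block, scaling, filter and weights. No measured member had another single-symbol probe set to try. Same-numbered arrays deviated from their group means with correlations of -0.208 to 0.071, so no strong pairing by number was seen. With 3 arrays in each group this cannot exclude a shared cage or litter. Probe sets with several symbols named no gene.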

Additional observations from a re-analysis of the deposited data

How the results depend on the processing

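The rises of Bcl2l11 and Bmf under TCDD in the knockout were called in all 14 alternatives, between 2.14 and 2.66 and between 1.30 and 1.57. Of 548 member values that were called neither as reported nor in the alternative, 48 did not keep their sign at 2 decimals. These include values of 0.00 in only 1 of the 2 fits. No called value changed sign. Members called under TCDD in the knockout numbered 4, and 2 (Bcl2l11 and Bmf) with the arrays of the compared groups alone or with wild-type corn oil livers as control, 3 with the replicate block or another quantile normalization, 5 with array weights, and 2 to 4 without 1 array. Under TCDD between genotypes they numbered 2, and 0 with the arrays of the compared groups alone (6 at an unadjusted p under 0.05), 1 with the replicate block (Bcl2l11), and 1 to 2 without 1 array. For the interaction they numbered 0, and 1 after another quantile normalization or without the lowest 25% of probe sets, 2 with array weights, and 0 to 2 without 1 array. Under corn oil they numbered 0, and 0 to 1 without 1 array.

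Over all probe sets, TCDD in the knockout gave 1303 calls, and 184 with the compared groups alone, 860 with the replicate block, 2515 with array weights, 533 against wild-type corn oil livers and 435 to 2004 without 1 array. The share of higher calls was 39.6%, but 59.2% after another quantile normalization, 54.4% after median centring, 64.7% with the compared groups alone, 58.7% against wild-type corn oil livers and 32.8% to 59.9% without 1 array. TCDD in the wild type gave 27, and 13, 15 and 47 with the first 3 of these settings and 6 to 19 without 1 array. Knockout against wild type under corn oil gave 457, and 0, 0 and 1734 with these settings (3842 and 4298 at an unadjusted p under 0.05 by limma for the counts of 0), 819 without the lowest 25% and 1 to 1624 without 1 array, with 63.0% higher, but 49.2% and 47.9% after the 2 rescalings. Under TCDD it gave 56, and 0 with the compared groups alone (2864 at an unadjusted p under 0.05), 176 with array weights, 88 without the lowest 25% and 21 to 73 without 1 array. The interaction gave 37, and 0 with the replicate block (3246 at an unadjusted p under 0.05), 61 after another quantile normalization (83.6% higher, against 67.6%), 149 without the lowest 25% (44.3% higher), 693 with array weights (33.6%) and 0 to 546 without 1 array, the last without knockout corn oil replicate 3 (28.6%). The cause of these shifts was not tested. No strong pairing of the arrays by replicate number was seen. The block lowered the call count of each comparison and ended the calls of Mcl1 under TCDD in the knockout (adjusted p = 0.0619) and, between genotypes, of Bmf and Tnfrsf10b under TCDD (adjusted p = 0.0921 and 0.0617) and of Bok (0.072), Tnfrsf1b (0.0938), Atf4 (0.093) and Stat5a (0.0852) under corn oil. With the compared groups alone the calls of Bcl2l1 (adjusted p = 0.131) and Mcl1 (0.15) in the knockout and of Bcl2l11 (0.116) and Bmf (0.202) between genotypes under TCDD were lost, as were those of Casp6 (0.0927), Foxo3 (0.0571), Stat5b (0.108) and Cflar (0.116) in the knockout, of Tnfrsf10b between genotypes under TCDD (0.0972), and of Bok (0.127), Tnfrsf1b (0.156), Atf4 (0.173) and Stat5a (0.118) between genotypes under corn oil.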
